A study of Homo sapiens with 9 samples.

Results

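The ER stress and ATF4 response genes described here are 10 genes that were picked by their Entrez number from the 20575 genes listed for each sample, and all 10 were found. They are HSPA5 (Entrez 3309), DDIT3 (Entrez 1649), ATF4 (Entrez 468), ATF3 (Entrez 467), ASNS (Entrez 440), TRIB3 (Entrez 57761), CHAC1 (Entrez 79094), XBP1 (Entrez 7494), DNAJB9 (Entrez 4189) and HERPUD1 (Entrez 9709). RNA-seq had been performed on Huh7, an established line of human hepatocellular carcinoma (HCC) cells, 48 h after transfection with 1 of 3 siRNA pools. siControl is a non-targeting pool, siLATS1 targets the Hippo pathway kinase LATS1 and siLATS2 its paralog LATS2, and each group held 3 samples. The labels name no other treatment, while the study's text also speaks of sorafenib for this experiment, so the groups are named here by siRNA alone. The comparisons ask whether ablation of LATS1 or LATS2 altered the mRNA of these genes beyond the spread among replicates. The Methods call the replicates biological triplicates, while the labels name no separate cultures, and p-values measure the spread between these samples.

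Cells that accumulate misfolded protein in the endoplasmic reticulum (ER) start the unfolded protein response through the sensors PERK, IRE1 and ATF6. PERK, like the amino acid sensor GCN2, phosphorylates the translation factor eIF2 alpha, which slows general translation but favors that of the transcription factor ATF4, and ATF4 then drives genes of amino acid supply, CHOP (encoded by DDIT3), TRIB3 and CHAC1. IRE1 splices the XBP1 mRNA, and XBP1 and ATF6 drive ER chaperones and genes of ER-associated degradation, a program that liver cells use heavily because they secrete plasma proteins.

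The response is known to act through short promoter elements, which were searched for in these genes, and 4 promoters that hold one are printed. RefSeq sequences on GRCh38.p14, from 250 bases before to 50 bases after the start of the gene, were at hand for all 10 genes and 27305 promoters in all, and both strands were searched. The ER stress response element (ERSE), spelled CCAAT, any 9 bases and CCACG, lay in 2 of the 10 promoters, HSPA5 and XBP1, and in 0.081% of all promoters. ERSE-II, spelled ATTGG, any 1 base and CCACG, lay in 1, HERPUD1, and in 0.055% of all. The C/EBP-ATF element bound by ATF4, spelled TGATGNAA, lay in 4, ATF3, ASNS, CHAC1 and HERPUD1, and in 3.673% of all. The unfolded protein response element, spelled TGACGTGG, and the cAMP response element, spelled TGACGTCA, lay in 0 of the 10 and in 0.795% and 1.978% of all. The promoters of DDIT3, ATF4, TRIB3 and DNAJB9 held none of the 5 elements. A match describes letters in this window and no match says only that they are not in it. HSPA5 (chr9:125241294-125241593 on the minus strand) is printed for its ERSE, ASNS (chr7:97872359-97872658 on the minus strand) and CHAC1 (chr15:40953221-40953520 on the plus strand) for the C/EBP-ATF element, and HERPUD1 (chr16:56931892-56932191 on the plus strand) for both kinds. Capitals mark the elements, which start at base -66 of HSPA5, -68 of ASNS, -209 of CHAC1, and -176 and -117 of HERPUD1, counted from the start of the gene, and they read as their reverse complement where they lie on the other strand.
HSPA5: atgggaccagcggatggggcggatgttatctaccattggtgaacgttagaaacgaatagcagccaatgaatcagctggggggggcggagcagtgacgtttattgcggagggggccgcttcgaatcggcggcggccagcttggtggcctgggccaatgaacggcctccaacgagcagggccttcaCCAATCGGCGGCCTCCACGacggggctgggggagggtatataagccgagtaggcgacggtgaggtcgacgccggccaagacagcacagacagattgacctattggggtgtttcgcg
ASNS: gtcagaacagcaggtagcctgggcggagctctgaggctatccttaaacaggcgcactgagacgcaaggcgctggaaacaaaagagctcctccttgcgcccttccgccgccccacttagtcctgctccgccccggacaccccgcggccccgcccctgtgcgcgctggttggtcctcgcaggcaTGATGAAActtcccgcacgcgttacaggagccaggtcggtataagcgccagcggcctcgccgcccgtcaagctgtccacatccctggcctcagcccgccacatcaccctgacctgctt
CHAC1: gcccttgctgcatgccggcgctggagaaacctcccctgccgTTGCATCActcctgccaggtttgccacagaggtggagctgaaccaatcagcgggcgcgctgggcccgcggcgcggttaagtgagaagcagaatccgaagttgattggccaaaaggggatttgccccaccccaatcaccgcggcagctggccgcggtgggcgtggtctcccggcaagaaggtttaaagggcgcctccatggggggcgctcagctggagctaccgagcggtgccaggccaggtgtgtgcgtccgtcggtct
HERPUD1: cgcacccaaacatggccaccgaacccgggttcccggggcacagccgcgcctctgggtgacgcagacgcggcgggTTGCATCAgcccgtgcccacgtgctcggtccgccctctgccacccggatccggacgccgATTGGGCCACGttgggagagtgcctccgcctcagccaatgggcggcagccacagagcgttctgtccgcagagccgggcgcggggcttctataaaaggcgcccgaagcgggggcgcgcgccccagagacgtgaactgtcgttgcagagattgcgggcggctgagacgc

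All values below are CPM (reads of a gene per 1000000 reads counted in a sample), scaled between samples by TMM (trimmed mean of M values) factors. Sequencing depth was 23547579 to 32193229 reads, so that 1 CPM stood for 23.5 to 32.2 reads, and all 10 genes were among the 12901 tested genes that reached 1 CPM in 3 or more samples. Fold changes are on the scale log2(CPM + 1), which understates the change of genes with low values. LATS1 itself stood at 76.1 ± 29.7 CPM (SD, n = 3) in siControl, 20.9 ± 5.82 in siLATS1 and 61.5 ± 14.9 in siLATS2, a log2 fold change of -1.78 (SE 0.31, adjusted p 0.126 in limma) in siLATS1 against siControl, while LATS2 was not analysed here. The LATS1 fold change was -1.50 (adjusted p 0.066 in limma) without siControl replicate 1. With the correction for transcript GC content described below it was -1.645 (SE 0.087, adjusted p 0.00017 in limma). The 8 liver markers fixed for Huh7, among them ALB and AFP, summed to 11139 to 22040 CPM per sample, whereas markers of leukocytes, endothelium and fibroblasts summed to at most 1.03, 2.77 and 4.22 CPM. Of the liver markers, SERPINA1 (log2 fold change 0.72) and TTR (0.77) were higher and APOB (-0.70) lower in siLATS1 than in siControl at an unadjusted p under 0.05 in limma. Of the others, the endothelial PECAM1 was lower in siLATS1 than in siControl (log2 fold change -0.72) at 0.643 to 2.72 CPM. The fibroblast COL3A1 was higher there (0.45, unadjusted p 0.0400 in limma) at 0.701 to 1.97 CPM. PECAM1 was also lower in siLATS2 than in siControl (-0.47, unadjusted p 0.0435 in limma). The part of these markers in the results was not tested. A gene was called past the threshold of the study's Methods when its unadjusted p in limma was under 0.05 and its log2 fold change reached 0.58 or -0.58, and adjusted p-values cover all tested genes. In bulk RNA, fewer cells that make an mRNA and less of it per cell cannot be told apart.

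siControl replicate 1 stood apart from the other siControl samples, and it did so along the GC content of the transcripts. Its difference from the mean of siControl replicates 2 and 3 had a Spearman correlation of -0.916 with transcript GC content across the 11959 tested genes with a GC value, all measured in the same 3 libraries. In 5 bins of rising GC content the median difference went from 0.89 on the log2 scale (30.7% to 40.3% GC) to -1.998 (57.8% to 73.8% GC). Other samples also deviated along GC content, with coefficients of -0.856 in siLATS1 replicate 1 and -0.874 in siLATS2 replicate 2. Results that rest on siControl replicate 1 are therefore given with and without it. They are also given after a GC correction, chosen after seeing the data, that takes the GC trend of each sample off before the fit. Leaving out siControl replicate 1 did not take the GC trend away but turned its sign. The fold changes in siLATS1 against siControl had a Spearman correlation with GC content of 0.593 with all samples. It was -0.572 without that sample and 0.007 with GC correction.

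Across the 10 genes, the difference of siControl replicate 1 followed GC content as well. DNAJB9, with the lowest transcript GC content of the 10 (37.3%), was 1.23 higher on the log2 scale in siControl replicate 1 than in the mean of the other siControl samples. CHAC1 (61.2% GC) was 2.08 lower and TRIB3 (61.5% GC) was 0.98 lower there, while the other 7 genes, with 42.7% to 53.2% GC, lay between -0.41 and 0.36. After GC correction these differences were 0.32 for DNAJB9 and -0.08 for CHAC1, but 1.05 for TRIB3, so that the correction turned TRIB3 in this sample from low to high instead of bringing it to the level of the others. It left XBP1 at 0.52, against 0.36 before.

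**Figure D1:**
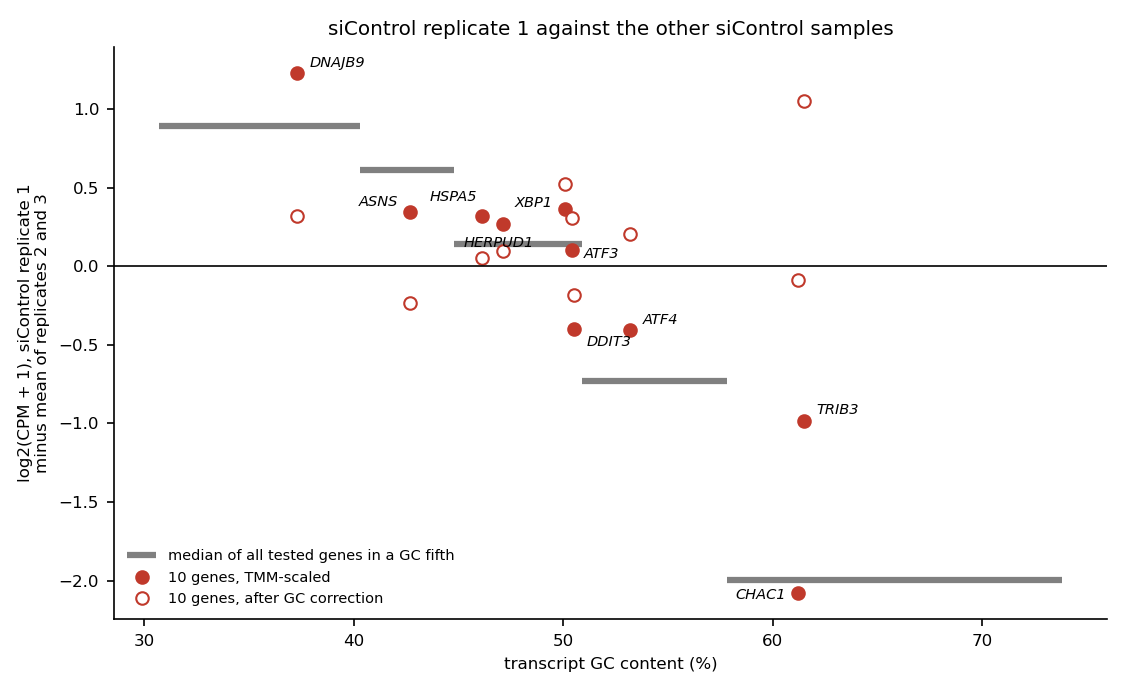
Difference between siControl replicate 1 and the mean of siControl replicates 2 and 3 (y axis, log2 of CPM + 1) against transcript GC content (x axis, %), with the 10 genes before (filled, named) and after (open, same GC) GC correction, and the median of all tested genes in 5 GC bins as grey bars. The difference ran from 1.23 for DNAJB9 to -2.08 for CHAC1, and TRIB3 moved from -0.98 to 1.05 with the correction.

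The spread among siControl samples was unequal between the genes. The SD over the siControl samples was 1.2 on the log2 scale for CHAC1, higher than that of 90.3% of tested genes, 0.75 for DNAJB9 (79.9%) and 0.57 for TRIB3 (67.2%). The other 7 genes had SDs of 0.09 for ATF3 to 0.31 for DDIT3, all lower than the median of 0.43 over all tested genes. The median SD of the 10 genes was 0.25 in siControl, 0.19 in siLATS1 and 0.15 in siLATS2, and that of all tested genes was 0.43, 0.24 and 0.19. With GC correction the order turned, with medians of 0.17, 0.17 and 0.16 for the 10 genes and 0.16, 0.13 and 0.09 for all genes. Between siControl replicates 2 and 3 alone, TRIB3 had an SD of 0.05 and CHAC1 of 0.12, and DNAJB9 kept the highest SD of the 10, at 0.33. CHAC1 and DNAJB9 were also the most variable of the 10 genes within siLATS1, with SDs of 0.57 and 0.50, and in all 3 groups the sample highest in DNAJB9 was the lowest in CHAC1. These were siControl replicate 1, siLATS1 replicate 1 and siLATS2 replicate 2, the samples with the most negative deviation along GC content in their groups.

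**Figure D2:**
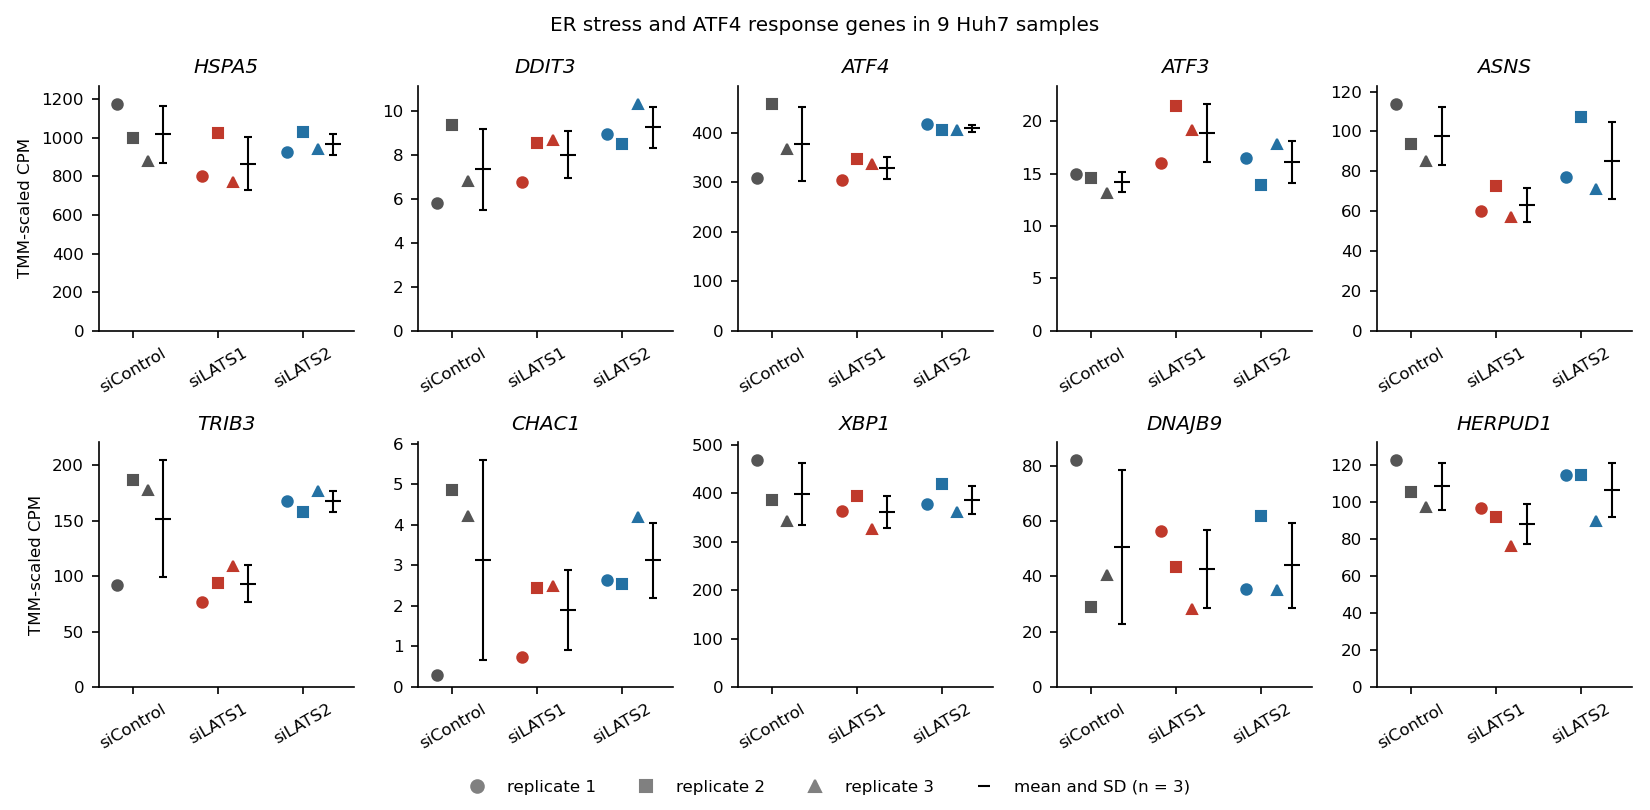
TMM-scaled CPM (y axis, from 0) of the 10 genes in the 9 samples by siRNA group, with 1 symbol per replicate and the mean and SD (n = 3) as a bar. ASNS was lower in all 3 siLATS1 samples than in any siControl sample, whereas siControl replicate 1 lay beside the siLATS1 samples for TRIB3 and below all other samples for CHAC1.

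In siLATS1 against siControl, 2 of the 10 genes were past the unadjusted threshold, ASNS and TRIB3, both lower in siLATS1, and 0 were past it with an adjusted p. Over all tested genes 0.589% were lower at the unadjusted threshold and 0.101% were past the adjusted one in either direction. Of the 10 log2 fold changes 8 were below 0, with a median of -0.21, beside 47.2% below 0 and a median of 0.02 over all tested genes. The number was also 8 without siControl replicate 1, beside 51.9% of all genes, and 8 with GC correction, beside 51.1%. It was 6 with GC correction and without siControl replicate 1, beside 51.2%.

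ASNS, asparagine synthetase, makes asparagine from aspartate and glutamine and is a classic ATF4 target. Its gene lies at chr7:97480989-97501854 on the minus strand of GRCh37. ASNS stood at 114, 93.8 and 85.2 CPM in siControl replicates 1, 2 and 3, at 59.9, 72.8 and 56.9 CPM in siLATS1, and at 77.4, 107 and 71.1 CPM in siLATS2. All 3 siLATS1 samples lay below all siControl samples, while siLATS2 overlapped with both groups. The mean was 97.6 ± 14.6 CPM (SD, n = 3) in siControl and 63.2 ± 8.43 in siLATS1. The log2 fold change was -0.62 (SE 0.20, 95% interval -1.07 to -0.16), with an unadjusted p of 0.0139 and an adjusted p of 0.582 in limma. An exact permutation test over the 6 samples gave p = 0.1, the smallest that 3 against 3 samples allow. Without siControl replicate 1 the log2 fold change was -0.52 (unadjusted p 0.0272), and with GC correction it was -0.54 (adjusted p 0.0658), both short of the 0.58 threshold.

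TRIB3, a pseudokinase that restrains AKT and ATF4 itself, is a target of ATF4 and CHOP, and its gene lies at chr20:343479-378203 on the plus strand of GRCh37. TRIB3 stood at 91.7, 187 and 177 CPM in siControl replicates 1, 2 and 3, at 76.5, 93.7 and 109.5 CPM in siLATS1, and at 168, 158 and 177 CPM in siLATS2. The siLATS1 samples lay below siLATS2 and below siControl replicates 2 and 3, but overlapped with siControl because of its replicate 1. The log2 fold change against siControl was -0.65 (SE 0.27, 95% interval -1.27 to -0.02), with an unadjusted p of 0.0438 and an adjusted p of 0.83 in limma. Without siControl replicate 1 it was -0.99 (SE 0.15), with an adjusted p of 0.0486 in limma, so TRIB3 then passed the adjusted threshold, as did 0.0465% of all tested genes in this direction. In edgeR on the same samples its adjusted p was 0.0667, short of that threshold. At the unadjusted threshold 3.03% of all tested genes were lower in the limma fit without siControl replicate 1, TRIB3 and CHAC1 among them. Fold changes fell with GC content in that fit, and TRIB3 and CHAC1 exceeded 90.2% and 89.4% of tested genes in transcript GC content. With GC correction and all samples the log2 fold change was -0.95 (adjusted p 0.112), with siControl replicate 1 then above the other siControl samples. With GC correction and without siControl replicate 1 it was -0.60 (adjusted p 0.0428 in limma).

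CHAC1 encodes a gamma-glutamylcyclotransferase that breaks down glutathione and lies at the end of the ATF4, ATF3 and CHOP cascade, at chr15:41245160-41248710 on the plus strand of GRCh37. CHAC1 stood at 0.307, 4.86 and 4.2 CPM in siControl replicates 1, 2 and 3, which rested on 7, 121 and 114 reads. It stood at 0.752, 2.43 and 2.49 CPM in siLATS1 and at 2.64, 2.55 and 4.2 CPM in siLATS2. The siLATS1 samples lay below siLATS2 and below siControl replicates 2 and 3, but the lowest sample of all was siControl replicate 1. The log2 fold change against siControl was -0.31 with a 95% interval from -1.59 to 0.97, which leaves its direction unresolved. Without siControl replicate 1 it was -1.02 (SE 0.31, unadjusted p 0.00986, adjusted p 0.255), and with GC correction -0.61 (SE 0.19, adjusted p 0.14). Both fits put CHAC1 past the unadjusted threshold, which 0.727% of genes passed downward with GC correction. TRIB3 was the other member past it in that fit.

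**Figure D3:**
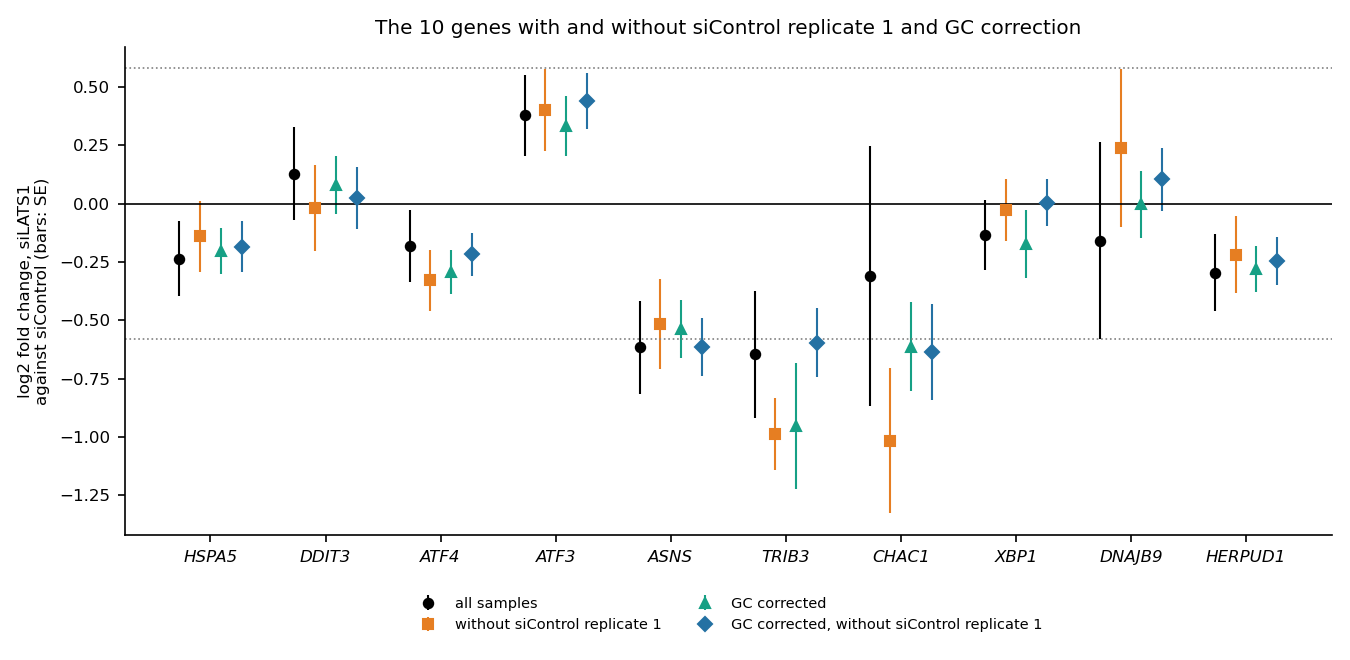
Log2 fold change in siLATS1 against siControl (y axis, bars: SE) for the 10 genes with all samples, without siControl replicate 1, with GC correction, and with both, and the threshold of 0.58 as dotted lines. ASNS stayed between -0.62 and -0.52, TRIB3 between -0.99 and -0.60 and CHAC1 between -1.02 and -0.31.

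With GC correction and without siControl replicate 1, ASNS (log2 fold change -0.61, adjusted p 0.0207 in limma) and TRIB3 were past the adjusted threshold, as were 0.761% of all genes in the downward direction. CHAC1 stood at -0.63 with an adjusted p of 0.0914 in that fit. This setting was chosen after seeing the data, and the adjusted call of ASNS rests on it alone among the settings tried.

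The transcription factors upstream of these genes were short of the threshold in this comparison. ATF4 stood at 309, 458 and 367 CPM in siControl, at 304, 348 and 336 CPM in siLATS1, and at 418, 406 and 405 CPM in siLATS2. The siLATS1 samples overlapped with siControl, again through replicate 1, and lay below all siLATS2 samples. The log2 fold change of ATF4 in siLATS1 against siControl was -0.18 (SE 0.16, 95% interval -0.54 to 0.17), and -0.33 without siControl replicate 1 (unadjusted p 0.0316). With GC correction it was -0.29 (unadjusted p 0.0130, adjusted p 0.158 in limma). These values are mRNA levels, and ATF4 is controlled largely at translation, which was not measured.

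DDIT3, the gene of the pro-apoptotic factor CHOP, stood at 5.84, 9.4 and 6.82 CPM in siControl, 6.8, 8.58 and 8.71 CPM in siLATS1, and 8.98, 8.49 and 10.3 CPM in siLATS2. The 3 groups overlapped, and the log2 fold change was 0.13 in siLATS1 (95% interval -0.33 to 0.58) and 0.32 in siLATS2 (-0.14 to 0.77). The value in siLATS1 was -0.02 without siControl replicate 1 and 0.08 with GC correction. ATF3, a stress-induced repressor, was the member with the highest fold change in siLATS1. It stood at 14.9, 14.6 and 13.1 CPM in siControl, 16, 21.5 and 19.2 CPM in siLATS1, and 16.5, 13.9 and 17.8 CPM in siLATS2. All siLATS1 samples lay above siControl, as in 5.77% of tested genes, with a log2 fold change of 0.38 (SE 0.17, 95% interval -0.02 to 0.78), an unadjusted p of 0.0586 and an adjusted p of 0.928 in limma. ATF3 was thus short of the threshold, as it was without siControl replicate 1 (0.40) and with GC correction (0.33). With GC correction and without siControl replicate 1 it stood at 0.44 (unadjusted p 0.00446, adjusted p 0.0573 in limma), also short of 0.58.

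Genes of the IRE1 and ATF6 arms were short of the threshold as well. HSPA5, which encodes the ER chaperone BiP and holds the sensors inactive, stood at 1174, 999.6 and 882 CPM in siControl, 801, 1027 and 772 CPM in siLATS1, and 927, 1029 and 941 CPM in siLATS2. The groups overlapped, and the log2 fold change in siLATS1 was -0.23 (SE 0.16, 95% interval -0.60 to 0.13). It was -0.14 without siControl replicate 1 and -0.20 with GC correction. XBP1, the transcription factor of the IRE1 arm, stood at 468, 385 and 343 CPM in siControl, 363, 394 and 327 CPM in siLATS1, and 379, 418 and 362 CPM in siLATS2. Its groups overlapped as well, with a log2 fold change of -0.13 in siLATS1 (95% interval -0.48 to 0.21), and counts per gene do not separate spliced from unspliced XBP1 mRNA. The fold change of XBP1 was -0.03 without siControl replicate 1 and -0.17 with GC correction.

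DNAJB9, an ER co-chaperone of BiP and target of XBP1, stood at 81.9, 29.0 and 40.6 CPM in siControl, 56.5, 43.5 and 28.0 CPM in siLATS1, and 35.4, 61.6 and 34.9 CPM in siLATS2. Each group held 1 sample well above its others, and the log2 fold change in siLATS1 was -0.16 (95% interval -1.12 to 0.80). It turned to 0.24 without siControl replicate 1 and was -0.002 with GC correction. HERPUD1, a membrane protein of ER-associated degradation, stood at 123, 106 and 97.5 CPM in siControl, 97.0, 91.8 and 76.3 CPM in siLATS1, and 115, 115 and 89.7 CPM in siLATS2. The siLATS1 samples lay below siControl by a narrow margin, 97.0 against 97.5 CPM, with a log2 fold change of -0.30 (SE 0.17, 95% interval -0.67 to 0.08). That fold change was -0.22 without siControl replicate 1 and -0.28 with GC correction (unadjusted p 0.0189, adjusted p 0.182 in limma). ASNS and HERPUD1 were the members with all siLATS1 samples below all siControl samples, as in 2.71% of tested genes.

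siLATS2 differed from siControl in 0 of the 10 genes at the unadjusted threshold, which 0.271% of all tested genes passed in either direction. The log2 fold changes ran from -0.21 for ASNS to 0.32 for DDIT3. In the fit with all samples, the 95% intervals of HSPA5, ATF4, ATF3, XBP1 and HERPUD1 lay between -0.43 and 0.56. A change of the threshold's size lay outside them. The intervals of CHAC1 (-1.03 to 1.53), DNAJB9 (-1.08 to 0.85), TRIB3 (-0.42 to 0.83), DDIT3 (-0.14 to 0.77) and ASNS (-0.66 to 0.25) held such a change in at least 1 direction. Over all genes, the fold changes of that fit had a Spearman correlation of 0.796 with GC content. This was -0.639 without siControl replicate 1 and 0.012 with GC correction. In these other fits 0 of the 10 genes were past the unadjusted threshold. Of all tested genes 30 were higher and 39 lower without siControl replicate 1, and 11 and 21 with GC correction.

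Compared directly, siLATS1 and siLATS2 differed in TRIB3. It was 93.2 ± 16.5 CPM (SD, n = 3) in siLATS1 and 168 ± 9.39 in siLATS2, a log2 fold change of -0.85 (SE 0.27, 95% interval -1.48 to -0.23) with an unadjusted p of 0.0132 and an adjusted p of 0.757 in limma. At this threshold 0.519% of all tested genes were lower in siLATS1, and 0.527% with GC correction, where TRIB3 stood at -0.75 and was again the only member of the 10 past it. siControl replicate 1 is in neither group and enters this comparison through the shared estimate of the spread, the scaling and the GC correction. With GC correction and without that sample, TRIB3 had an adjusted p of 0.0165 in limma, and 0.385% of genes were lower past the adjusted threshold. TRIB3, ATF4 and CHAC1 were lower in all siLATS1 samples than in all siLATS2 samples, as in 6.63% of tested genes, and 0 of the 10 genes were higher in all siLATS1 samples, as in 5.8%. The log2 fold change was -0.32 for ATF4 (unadjusted p 0.0742), -0.56 for CHAC1 (0.343) and -0.41 for ASNS (0.0708), which were short of the threshold. Of the 10 genes 9 had a log2 fold change below 0, with a median of -0.23, beside 57.7% and -0.04 over all tested genes.

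**Figure D4:**
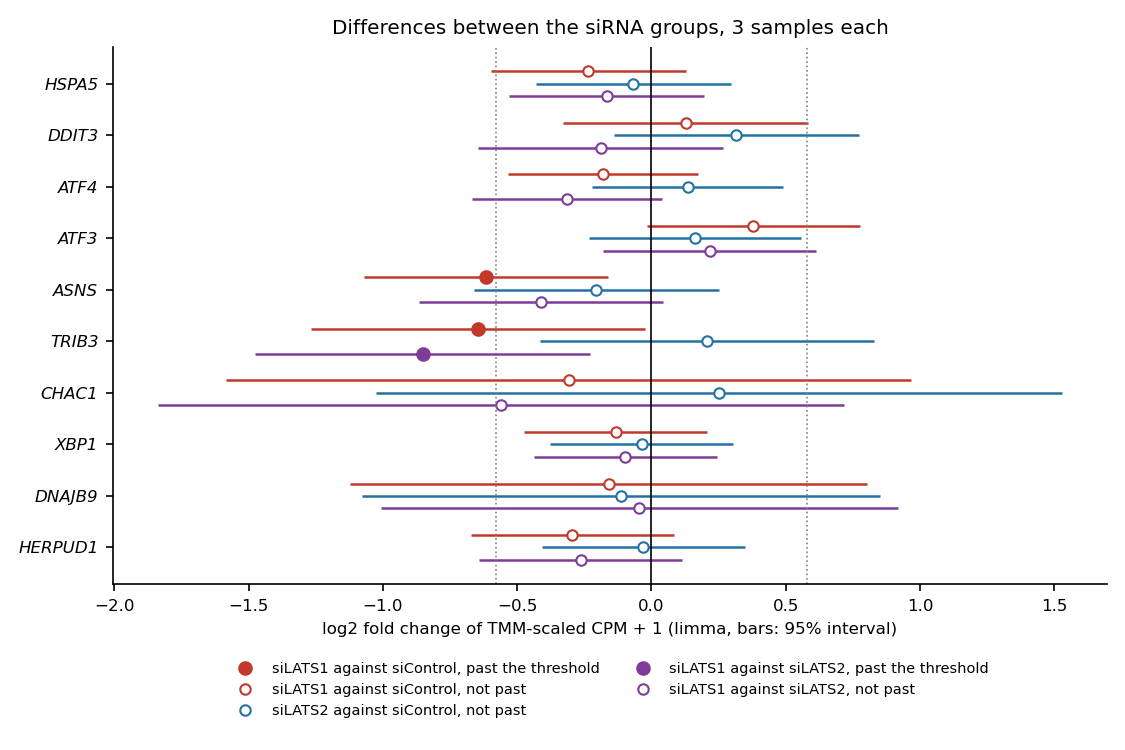
Log2 fold change (x axis, with 95% interval from limma) of the 10 genes in the 3 comparisons, filled where past the unadjusted threshold, with 0.58 in either direction as dotted lines. ASNS (-0.62) and TRIB3 (-0.65) were past it in siLATS1 against siControl and TRIB3 (-0.85) in siLATS1 against siLATS2, while the intervals of CHAC1 and DNAJB9 were the widest.

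The wider pathway was described with 6 lists of 81 genes that did not hold the 10 genes, of which 79 were tested. Among the 13 genes of amino acid synthesis, uptake and one-carbon metabolism that ATF4 is known to drive, 3 were past the unadjusted threshold in siLATS1 against siControl, all lower, and 0 were higher, beside 0.589% lower and 2.33% higher over all tested genes. These were SLC7A1, the transporter of arginine and lysine (log2 fold change -0.66, SE 0.19, adjusted p 0.474 in limma), MTHFD2, a mitochondrial folate enzyme (-0.67, SE 0.23, adjusted p 0.656), and ALDH1L2, another mitochondrial folate enzyme (-0.59, SE 0.17, adjusted p 0.474). SLC7A1 stood at 42.7, 63.0 and 64.7 CPM in siControl, 31.8, 40.6 and 32.9 CPM in siLATS1, and 50.7, 53.3 and 49.3 CPM in siLATS2, so that the siLATS1 samples lay below both other groups. ALDH1L2 was close to the filter of 1 CPM, at 2.42, 1.21 and 1.44 CPM in siControl and 0.889, 0.679 and 0.683 CPM in siLATS1. Its siLATS2 samples, at 1.06, 1.09 and 0.861 CPM, also lay below siControl (-0.40, unadjusted p 0.0472 in limma). In this list 11 of 13 genes were below 0, with a median of -0.40, beside 47.2% and 0.02 over all tested genes. In siLATS2 against siControl 0 of 13 were past the threshold and the median was -0.13.

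Single settings changed which genes of the amino acid list were past the threshold. Without siControl replicate 1, 5 of the 13 genes were lower at the unadjusted threshold, beside 3.03% of all genes. With GC correction 3 were, beside 0.727%, and 2 of these were also past the adjusted threshold, beside 0.276%. MTHFD2 (-0.52 and -0.56) and ALDH1L2 (-0.42 and -0.50) fell short of 0.58 in these fits, and of the 3 genes named before only SLC7A1 remained past it. The 2 genes past the adjusted threshold were SLC7A1 (-0.76, adjusted p 0.0158) and SLC7A5, the light chain of a transporter of large neutral amino acids (-0.76, adjusted p 0.0358), which was named after its values were seen. SLC7A5 stood at 120.1, 562 and 599 CPM in siControl, 185, 296 and 288 CPM in siLATS1, and 391, 326 and 432 CPM in siLATS2. siControl replicate 1 was the lowest of the 9 samples, as for CHAC1, and siControl replicates 2 and 3 lay above all siLATS1 samples. With all samples and no correction its log2 fold change was -0.46 (SE 0.56). With GC correction and without siControl replicate 1, 3 of the 13 genes were lower past the adjusted threshold, beside 0.761% of all genes. In that fit, chosen after seeing the data, 13 of 13 were below 0, beside 51.2%, with a median of -0.51.

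The enzymes that load amino acids onto tRNA, which ATF4 also drives, were below 0 in 11 of 11 cases in siLATS1 against siControl. Their median was -0.23, beside 47.2% below 0 and a median of 0.02 over all tested genes. Of the 11 genes 0 were past the unadjusted threshold, beside 0.589% lower and 2.33% higher over all tested genes. TARS1 (-0.48, unadjusted p 0.0346) and IARS1 (-0.44, unadjusted p 0.0598) had the most negative values. Against siLATS2 the same 11 genes were also all below 0, with a median of -0.28, beside 57.7% and -0.04 over all tested genes. Of the stress regulators and genes linked to CHOP, 13 were tested, and 1 was higher and 1 lower at the unadjusted threshold, beside 2.33% and 0.589% of all tested genes. STC2, a secreted glycoprotein, was lower (-1.01, SE 0.30, adjusted p 0.499 in limma), at 5.23, 7.59 and 7.56 CPM in siControl and 2.08, 1.93 and 5.18 CPM in siLATS1. BCL2L11, which encodes the pro-apoptotic BIM, was higher (0.73, SE 0.21, adjusted p 0.479), at 32.0, 23.3 and 25.8 CPM in siControl, 50.2, 34.0 and 53.7 CPM in siLATS1, and 25.2, 29.2 and 24.8 CPM in siLATS2. The siLATS1 samples of BCL2L11 lay above both other groups, and it was also past the unadjusted threshold against siLATS2 (0.75). The list's median was 0.04 with 5 of 13 genes below 0. It turned to -0.31 with 11 of 13 without siControl replicate 1 and to -0.22 with 9 of 13 after GC correction. With GC correction and without siControl replicate 1 it was -0.03 with 7 of 13. Over all tested genes the share below 0 was 47.2% with all samples, and 51.9%, 51.1% and 51.2% in those fits, in this order.

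In the remaining lists 0 genes were past the threshold in any of the 3 comparisons. The median log2 fold change in siLATS1 against siControl was 0.01 over 12 stress sensors and genes of the eIF2 alpha arm, -0.16 over 15 ER chaperones and folding enzymes and -0.10 over 15 tested genes of ER-associated degradation and translocation. Below 0 were 5 of 12, 10 of 15 and 10 of 15 genes, beside 47.2% of all tested genes. Without siControl replicate 1 these were 6, 14 and 6 genes, beside 51.9%, and with GC correction 6, 14 and 10, beside 51.1%. Against siLATS2 they were 8, 14 and 10, beside 57.7%, with a median of -0.17 for the chaperones. The members furthest from 0 were EIF2S1, which encodes eIF2 alpha itself (-0.35), and PPP1R15A, the stress-induced subunit that dephosphorylates it (0.29), the oxidases ERO1A (-0.52) and ERO1B (-0.48), and in the degradation list the mannosidase-like EDEM3 (-0.31) and the lectin OS9 (0.30). The unadjusted p-values of these 6 genes in limma lay between 0.208 and 0.448. Each had siControl replicate 1 as the highest or the lowest of the siControl samples, but the share of all tested genes with this trait was not counted.

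**Figure D5:**
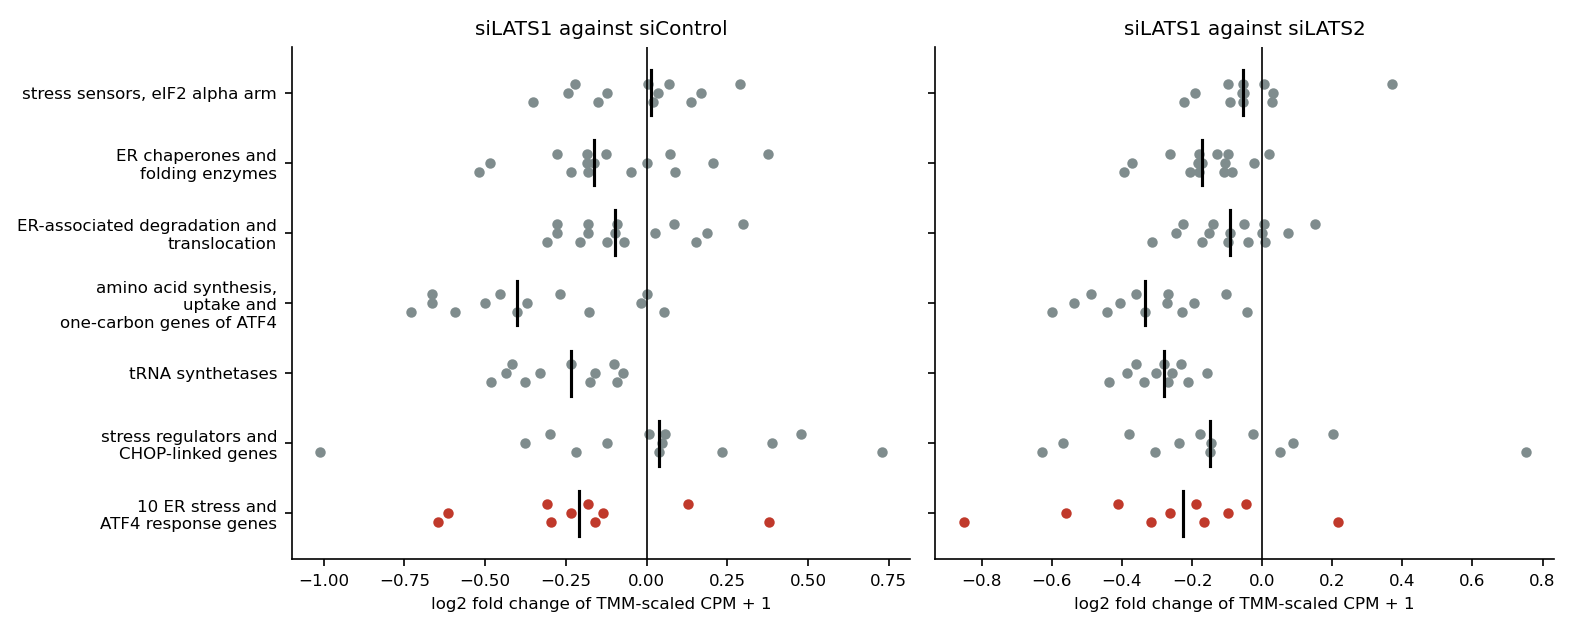
Log2 fold change (x axis) of the tested genes of the 6 lists (grey) and of the 10 genes (red), 1 point per gene with the list's median as a black line, in siLATS1 against siControl (left) and siLATS1 against siLATS2 (right). In siLATS1 against siControl the medians were -0.40 for the amino acid list, -0.23 for the tRNA synthetases and -0.21 for the 10 genes, and between -0.16 and 0.04 for the other lists.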

How the data were processed

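Total RNA of 9 Huh7 samples was sequenced, 3 per siRNA group. According to the Methods of the study and the labels, reads were mapped uniquely to hg19 (GRCh37) with STAR and counted over the exons of RefSeq genes with QuasR. The labels name a ribosomal RNA depletion kit, while the Methods describe poly-A selection. The authors deposited each gene's value as CPM, scaled to the sum of counted reads per sample. Gene names came from a RefSeq table, which named 20474 of 20575 Entrez numbers (99.51%), and 1 row without a number per file was left out. In every sample 100% of values were whole multiples of 1 unit, the smallest value (tolerance 0.01 read), so that whole reads were recovered.

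Samples were grouped by the siRNA in the labels. CPM were scaled by TMM factors (0.957 to 1.06; edgeR 4.0.16), genes that reached 1 CPM in 3 or more samples were kept, and log2(CPM + 1) was fitted with limma 3.58.1 (R 4.3.3) with a mean-variance trend, 1 mean per group over all 9 samples, 2-sided, with Benjamini-Hochberg adjustment over 12901 genes. The count tests, edgeR's quasi-likelihood test and DESeq2 1.42.0, were run on the recovered reads as alternatives. At the unadjusted threshold edgeR called 452 genes in siLATS1 against siControl, 68 in siLATS2 against siControl and 328 in siLATS1 against siLATS2, beside 376, 35 and 240 with limma. The limma, edgeR and DESeq2 steps were tested on simulated data. For the GC correction, added after seeing the data, a lowess trend (span 0.3) of each sample's deviation on transcript GC content was taken off. GC content was that of the MANE Select or the longest coding transcript and was known for 92.7% of tested genes. Other alternatives were the scaling, the filter, the pseudocount, the samples fitted, a replicate block and leaving out each sample. Intervals cover the spread between samples only.

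The 10 genes and the lists were chosen with earlier results of these data known. All 10 genes were named, and of each list the genes past the unadjusted threshold in any comparison, or otherwise the 2 with the largest change in siLATS1 against siControl. Promoters came from RefSeq on GRCh38.p14, while gene positions are those of GENCODE on GRCh37.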

Additional observations from a re-analysis of the deposited data

How the results depend on the processing

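The log2 fold changes of the 10 genes were recomputed under 23 alternatives (22 for CHAC1, which fails the filter of 1 CPM in all samples), 229 values in each comparison. In siLATS1 against siControl 201 values kept their direction and their side of the unadjusted threshold, 14 fell short of it, 5 passed it newly and 9 changed sign. TRIB3 in siLATS1 against siLATS2 stayed past the unadjusted threshold under each of its 23 alternatives, between -0.97 and -0.73. ASNS in siLATS1 against siControl fell short with CPM as deposited (-0.53), without siControl replicate 1 (-0.52) or siLATS1 replicate 3 (-0.54) with GC correction, with or without the block (-0.54), and in edgeR with siControl replicates 2 and 3 only (-0.50), and TRIB3 with CPM as deposited (-0.56), with only the 6 samples compared (-0.67) and in 6 of the 9 fits that left out 1 sample. CPM as deposited move the median of all genes from 0.02 to 0.10. Without siControl replicate 1 the SD among siControl samples fell from 1.2 to 0.12 for CHAC1, from 0.57 to 0.05 for TRIB3 and from 0.75 to 0.33 for DNAJB9, while it was 0.29 instead of 0.31 for DDIT3 and 0.10 instead of 0.09 for ATF3.

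The numbers of genes past the threshold were 376, 35 and 240 unadjusted and 13, 0 and 0 adjusted, in siLATS1 against siControl, siLATS2 against siControl and siLATS1 against siLATS2. Leaving out 1 sample gave 234 to 730, 11 to 69 and 194 to 308 unadjusted, and 0 to 40, 0 and 0 to 19 adjusted. The adjusted number in siLATS1 against siControl was 0 with only the 6 samples compared, 5 with edgeR and with 1 CPM required in all samples, 166 with DESeq2 and 166 with GC correction, and in siLATS1 against siLATS2 it was 3 without a filter, 100 with DESeq2 and 81 with GC correction. Unadjusted, siLATS2 against siControl gave 72 with a pseudocount of 0.1, 22 with only the 6 samples compared, 68 with edgeR and 70 with DESeq2. With siControl replicates 2 and 3 only, edgeR gave 826, 131 and 450 unadjusted and 26 and 17 adjusted in siLATS1 against siControl and against siLATS2, and GC correction gave 62 unadjusted in siLATS2 against siControl and 390 and 180 adjusted in the other comparisons. The causes were not tested.

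Whether the replicate numbers pair the samples was not resolved. Correlations of deviations, without GC correction, ran from -0.874 to 0.92 for the same number (mean 0.21) and from -0.91 to 0.87 for different numbers (mean -0.10). These deviations also followed GC content, so they cannot decide the pairing. With the replicate block, 400, 46 and 256 genes were past the unadjusted threshold and 0 past the adjusted one in each comparison, and with the replicate block and GC correction 234, 0 and 105 were past the adjusted one.

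Signs changed in values near 0 or of wide error. In siLATS1 against siControl leaving out 1 sample gave -0.02 to 0.26 for DDIT3, -1.02 to 0.05 for CHAC1 and -0.53 to 0.24 for DNAJB9. In edgeR with siControl replicates 2 and 3 only DDIT3 was -0.01 and DNAJB9 0.29, and with GC correction on those samples XBP1 was 0.00 and DNAJB9 0.10. In siLATS1 against siLATS2 DNAJB9 was 0.03 with CPM as deposited and -0.28 to 0.23 without 1 sample. In siLATS2 against siControl leaving out 1 sample gave -0.18 to 0.02 for HSPA5, -0.02 to 0.22 for ATF4, -0.14 to 0.34 for TRIB3, -0.45 to 0.60 for CHAC1, -0.15 to 0.07 for XBP1, -0.50 to 0.28 for DNAJB9 and -0.13 to 0.09 for HERPUD1. With GC correction, with or without the replicate block, ATF4 was -0.04, TRIB3 -0.20, CHAC1 -0.15 and DNAJB9 0.08. In edgeR with siControl replicates 2 and 3 only HSPA5 was 0.02, ATF4 -0.03, TRIB3 -0.14, CHAC1 -0.55, XBP1 0.06, DNAJB9 0.31 and HERPUD1 0.04, and with GC correction on those samples CHAC1 was -0.17, XBP1 0.06 and DNAJB9 0.18. CHAC1 was -0.06 in edgeR and -0.03 in DESeq2 with all samples.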
